A study of Mus musculus with 8 samples.

Results

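Loss of the transcription factor Twist1 from mouse skin tumour cells was profiled on 4 microarrays, 2 of tumours in which the gene had been deleted and 2 of tumours in which it could not be. The members of the comparison are all probe sets that the platform annotation gives 1 gene symbol, on the value table that holds these 4 of the 8 arrays of the series. They number 34945 of 45101 probe sets and name 18193 genes. Where a gene has several probe sets, the brightest of them over the 4 arrays stands for it. A total of 15273 genes had a mean log2 signal of at least 4.29, the 20th percentile of the named probe sets, and were tested. The other 2920 genes lay below that level and are not counted below.

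All mice carried floxed Twist1 alleles (Twist1fl/fl), bore skin tumours raised by DMBA, a carcinogen, followed by TPA, a tumour promoter, and were given tamoxifen in 5 doses of 2 mg. The deletion group carried K14CreER in addition, a tamoxifen-activated recombinase driven by the keratin 14 promoter of basal epithelial cells. The control group had no Cre, so that the presence of the recombinase and the loss of Twist1 cannot be told apart. Live cells with the epithelial surface protein Epcam and without lineage markers were sorted in both groups, and cells that had lost Epcam were therefore not measured. The labels give neither the age nor the sex of the mice, the time between tamoxifen and sorting, or whether the arrays of a group came from separate mice, so p-values measure the spread between these arrays. With 2 arrays per group that spread is poorly known.

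Twist1 is a basic helix-loop-helix factor that binds E-box motifs of DNA as a dimer, mostly with E proteins such as those encoded by Tcf3, Tcf4 and Tcf12. Id proteins lack a DNA-binding region and take up E proteins, and so compete with factors such as Twist1 for the same partners. Twist1 is known for driving epithelial cells toward a mesenchymal state and for restraining p53 activity and cell death in tumours.

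The sorted cells read as epithelial on every array, with a mean log2 signal over 12 epithelial markers between 11.68 and 11.81. Of 20 leukocyte markers 15 passed the filter, at a mean of 5.54 to 5.68 on each array, while Ptprc, which encodes CD45, lay below it. The endothelial marker Pecam1, which encodes CD31, read between 4.62 and 4.98. The antigen-presenting cell markers stood apart on 1 array, where the summed linear signal of 8 genes was 3984 in deletion 2 against 1052 and 1528 in the controls and 1245 in deletion 1. Cd207, the defining marker of Langerhans cells, was between 4.94 and 5.22 on the 4 arrays. The poly-A RNAs added before labelling averaged 8.22 and 9.14 on the control arrays and 9.49 and 10.53 on the deletion arrays, and the 3′ excess of the Gapdh and Actb probe sets was also larger on both deletion arrays. The 2 deletion arrays differed more from each other (SD of the difference over genes 0.51) than the 2 controls did (0.33). In bulk RNA such as this, fewer cells of a type and less RNA per cell cannot be told apart.

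**Figure D1:**
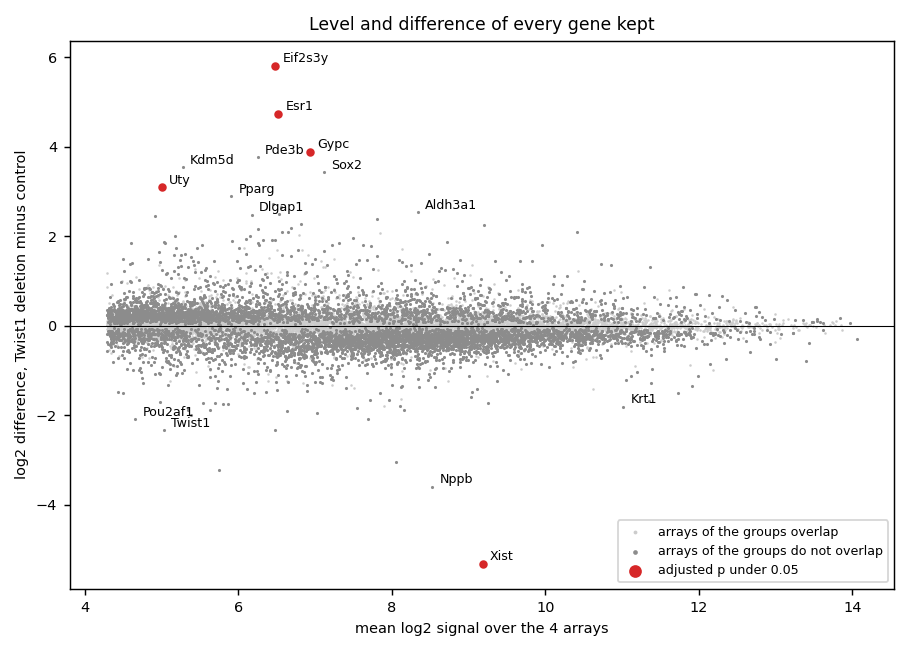
Mean log2 signal over the 4 arrays (x axis) and log2 difference, Twist1 deletion minus control (y axis), for each of 15273 genes. Red points are the 5 genes with an adjusted p under 0.05, dark grey points are genes whose arrays do not overlap between the groups, and light grey points are genes whose arrays do.

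The Twist1 signal itself was 5.20 on control 1, 7.18 on control 2, 3.81 on deletion 1 and 3.90 on deletion 2. Both deletion arrays lay below both controls, but the controls were spread over more than the gap between the groups. The log2 difference was -2.33 (SE 0.63, n = 2 per group) and did not pass the test across all genes (limma, adjusted p = 0.51). The gene has 1 probe set, and whether that probe set lies within the floxed part was not tested.

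Between the groups 5 genes passed the test over 15273 genes, 4 of them higher after deletion (0.0262% of genes) and 1 lower (0.00655%). The fall was that of Xist, the RNA that coats the inactive X chromosome of females, and the rises of Eif2s3y and Uty belong to the Y chromosome. Eif2s3y was at 3.62 and 3.52 on the controls and at 9.42 and 9.35 on the deletion arrays, and a further Y-linked gene, Kdm5d, stood at 3.34 and 3.67 against 7.39 and 6.70. The groups thus differ in sex-linked genes as well as in genotype, and the labels name no sex, so that sex and deletion cannot be told apart. Genes that are transcribed from both X chromosomes had lower means on the deletion arrays too, with log2 differences of -0.63 for Kdm5c, -0.35 for Kdm6a and -0.36 for Eif2s3x.

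Esr1 and Gypc, both autosomal, were the other rises. Esr1, which encodes estrogen receptor alpha, was near the filter level on the controls at 3.96 and 4.34 and reached 8.94 and 8.83 on the deletion arrays. The deletion arrays were alike and stood far above both controls, with a log2 difference of 4.73 (SE 0.21, limma adjusted p = 0.018). Only 1 of the 3 Esr1 probe sets read in this way, and the others differed by 0.32 and -0.24 and overlapped between the groups. When its probe sets were averaged instead, the difference was 1.60 and did not pass. Without deletion 1 or deletion 2 another Esr1 probe set became the brightest, and the difference was 0.15 and -0.63. CreER holds a part of an estrogen receptor and is carried by the deletion group alone, and whether this probe set reads it was not tested. Of 8 estrogen-responsive genes listed, 6 had a higher mean and 1, the IGF-binding protein gene Igfbp4, had groups that did not overlap, with a list median of 0.09 that was -0.01 without deletion 2, 0.0045 without control 1, 0.18 without control 2 and 0.22 without deletion 1.

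Gypc, a membrane glycoprotein that anchors the cytoskeleton of red blood cells, was at 4.88 and 5.11 on the controls and 8.83 and 8.94 on the deletion arrays. The gap of 3.89 (SE 0.18, limma adjusted p = 0.018) was many times the spread within either group. Other erythroid genes did not follow it: of 8 such markers 5 had a higher mean and 3 a lower, the list median was 0.07 (from -0.04 to 0.20 with any 1 array left out), and their summed linear signal ran from 243 to 300.4 over the arrays. When either control was left out no gene passed in limma, with 536 genes at an unadjusted p under 0.05 without control 1 and 575 without control 2. When deletion 1 or deletion 2 was left out, 40 and 14 genes passed, of which 8 were shared (20% of the first set and 57.1% of the second): Eif2s3y, Gypc, Kdm5d, Mir1931, Nppb, Pde3b, Pparg and Xist.

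With the 5 called genes included, 1364 genes (8.93%) had an unadjusted p under 0.05 in limma, 503 of them higher and 861 lower after deletion. With quantile normalization of the arrays the split was 578 higher and 635 lower. Among these, 314 genes (2.06%) combined no overlap of the groups with an unadjusted p under 0.01. The genes described next are the largest differences of that set. Apart from the called genes they did not pass after adjustment over all genes and are given as levels.

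**Figure D2:**
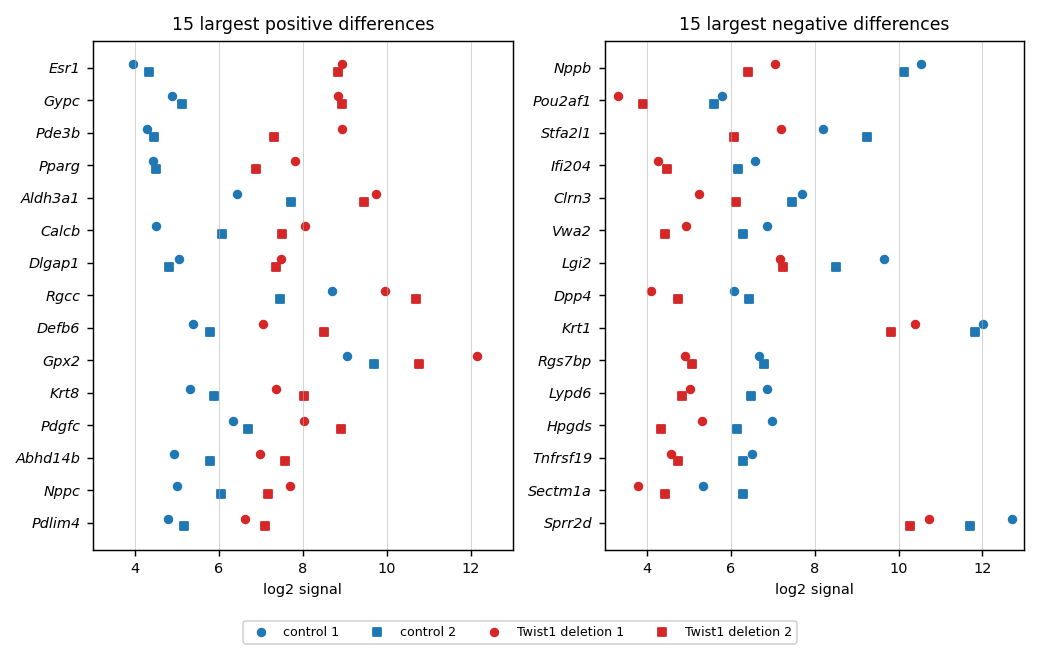
Log2 signal (x axis) of the 15 autosomal named genes with the largest positive and the 15 with the largest negative difference at an unadjusted p under 0.01 with groups that do not overlap. Each point is 1 array, circles for the first and squares for the second of a group, blue for controls and red for Twist1 deletion.

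After Esr1 and Gypc, Pde3b and Pparg had the largest positive differences. Pparg, the nuclear receptor that drives adipocyte and sebocyte differentiation, was at 4.43 and 4.49 on the controls and at 7.82 and 6.89 on the deletion arrays, a difference of 2.89 (SE 0.33, limma adjusted p = 0.22). Pde3b, a phosphodiesterase that links insulin signalling to lipolysis, was at 4.29 and 4.45 against 8.94 and 7.32, a difference of 3.76 (SE 0.54). For both genes the controls were tight and near the filter level, and deletion 1 read higher than deletion 2. Aldh3a1, an aldehyde dehydrogenase of surface epithelia, stood at 6.42 and 7.71 on the controls and at 9.75 and 9.45 on the deletion arrays. The glutathione peroxidase gene Gpx2 stood at 9.04 and 9.70 against 12.14 and 10.78. Neither of them overlapped between the groups.

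Nppb, which encodes the B-type natriuretic peptide, had the largest negative difference of the autosomal genes tested, at 10.53 and 10.12 on the controls and 7.06 and 6.40 on the deletion arrays. The deletion arrays lay far below the lower control, and the difference of -3.59 (SE 0.28) came close to the threshold (limma adjusted p = 0.093). Nppc, which encodes the related C-type peptide, went the other way, at 4.99 and 6.06 against 7.70 and 7.17. Npr2, the receptor of the C-type peptide, differed by -0.11 and the clearance receptor gene Npr3 by -0.23. Calcb, a calcitonin gene-related peptide, was at 4.49 and 6.07 on the controls and 8.06 and 7.51 on the deletion arrays. Pdgfc, a growth factor for mesenchymal cells, was at 6.34 and 6.68 against 8.03 and 8.90, and its second probe set differed in the same direction by 1.73.

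Among the remaining large positive differences, Krt8, a keratin of simple epithelia, read alike on all of its 3 probe sets, with differences between 2.09 and 2.20 and no overlap on any of them. Its brightest probe set was at 5.32 and 5.89 on the controls and 7.35 and 8.03 on the deletion arrays. Dlgap1, a scaffold protein of synapses, was at 5.06 and 4.80 against 7.48 and 7.35, and 4 of its 6 probe sets had a higher mean with groups apart. Without deletion 1 or deletion 2 a probe set that differed little became the brightest and stood for the gene, with differences of -0.14 and -0.01. Rgcc, a regulator of cell cycle progression, had log2 differences of 2.24 and 1.77 on its 2 probe sets. The beta-defensin gene Defb6 (2.19), the hydrolase gene Abhd14b (1.92) and the actin-associated Pdlim4 (1.89) are read by 1 probe set each.

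The other large negative differences were of genes with varied roles. Pou2af1, a transcriptional coactivator known from B cells, was at 5.79 and 5.61 on the controls and at 3.32 and 3.91 on the deletion arrays, below the filter level. Ifi204, an interferon-induced DNA sensor, was at 6.58 and 6.17 against 4.27 and 4.49. In both genes the arrays of a group lay close together and the groups were well apart, with adjusted p of 0.22 in limma. Stfa2l1, a cysteine protease inhibitor of the stefin family, was at 8.19 and 9.26 on the controls and at 7.20 and 6.09 on the deletion arrays. Krt1, the keratin of the first differentiated layers of epidermis, was at 12.01 and 11.83 against 10.40 and 9.83, and the cornified envelope gene Sprr2d at 12.71 and 11.69 against 10.74 and 10.29. The arrays did not overlap between the groups in any of these genes.

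Rgs7bp, which tethers regulators of G-protein signalling to membranes, and Lypd6, a membrane-anchored modulator of Wnt signalling, had lower means without overlap on all 3 of their probe sets. Rgs7bp was at 6.68 and 6.80 on the controls and at 4.90 and 5.09 on the deletion arrays, a difference of -1.74 (SE 0.17). Lypd6 was at 6.86 and 6.49 against 5.03 and 4.84, also a difference of -1.74 (SE 0.20). The remaining genes of this group were Clrn3 (-1.90), Vwa2 (-1.89), Lgi2 (-1.88), the surface peptidase gene Dpp4 (-1.83), the prostaglandin D synthase gene Hpgds (-1.74), the TNF receptor family member Tnfrsf19 (-1.73) and Sectm1a (-1.70). Their deletion arrays all lay below both controls.

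Since Twist1 binds E-boxes, the 250 bases before the annotated start were searched for CANNTG, which reads the same on both strands. Below are the RefSeq promoter sequences (GRCm38.p6) of the 2 negative differences whose deletion arrays were among the most clearly separated, and of Id2, the leading gene of the Id list described further on, with each CANNTG in capitals.
Nppb (chr4:147985650-147985899, plus strand): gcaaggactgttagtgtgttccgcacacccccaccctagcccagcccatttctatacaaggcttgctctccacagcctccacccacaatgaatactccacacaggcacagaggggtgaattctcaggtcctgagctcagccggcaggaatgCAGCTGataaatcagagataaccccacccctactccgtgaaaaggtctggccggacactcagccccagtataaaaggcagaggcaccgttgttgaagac
Pou2af1 (chr9:51213440-51213689, plus strand): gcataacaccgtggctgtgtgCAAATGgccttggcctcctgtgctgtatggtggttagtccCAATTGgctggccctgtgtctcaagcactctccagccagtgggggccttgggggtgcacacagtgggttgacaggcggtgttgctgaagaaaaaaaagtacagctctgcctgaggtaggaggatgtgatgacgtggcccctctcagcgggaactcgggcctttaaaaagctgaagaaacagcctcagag
Id2 (chr12:25096093-25096342, minus strand): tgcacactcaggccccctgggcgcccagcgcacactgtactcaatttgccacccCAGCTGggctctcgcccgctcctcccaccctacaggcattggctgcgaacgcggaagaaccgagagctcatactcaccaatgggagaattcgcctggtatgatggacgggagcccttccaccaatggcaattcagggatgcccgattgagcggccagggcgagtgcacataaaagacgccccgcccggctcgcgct
The windows of Nppb and Id2 each hold 1 match and that of Pou2af1 holds 2. Of the 15 largest negative differences 11 had a promoter with 1 annotated start, and 10 of these (90.9%) held the motif. So did 4 of 8 such promoters (50%) among the largest positive differences and 66.3% of 22862 genes with 1 start. Esr1, Pparg and Dlgap1 (positive) and Tnfrsf19 (negative) have several annotated starts and were left out. Each of them held the motif before at least 1 start. The narrower form CATNTG, or CANATG on the other strand, was in 6 of 11, in 3 of 8 and in 35.4%, and it overlaps the wider motif. A match is no more than these letters in this window.

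Genes with several probe sets allow the same difference to be read more than once. In the set of 314, 88 of the 150 genes with a positive difference had further probe sets, and for 62 of them all further probe sets had a difference of the same sign. For the 164 with a negative difference, 91 had further probe sets and for 66 all had the same sign. Probe set by probe set, 11 of 34945 (0.0315%) passed the test, and they include single probe sets of Phgdh, Dlgap1, Nppb and Kdm5d. Phgdh, the first enzyme of serine synthesis, is the clearest case of disagreement. Its called probe set was at 11.11 and 11.80 on the controls and at 6.00 and 5.14 on the deletion arrays, a difference of -5.88 (limma adjusted p = 0.015). Its other 3 probe sets differed by -0.74, -0.16 and -0.06. Similarly, Tnfrsf19 differed by -1.73 on 1 probe set and by -0.39 and 0.02 on the others. Dpp4 differed by -1.83 on 1 probe set and by -0.41, -0.21 and -0.02 on the others. Differences of genes with 1 probe set, among them Gypc, Nppb, Pparg and Pde3b, have no such second reading.

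**Figure D3:**
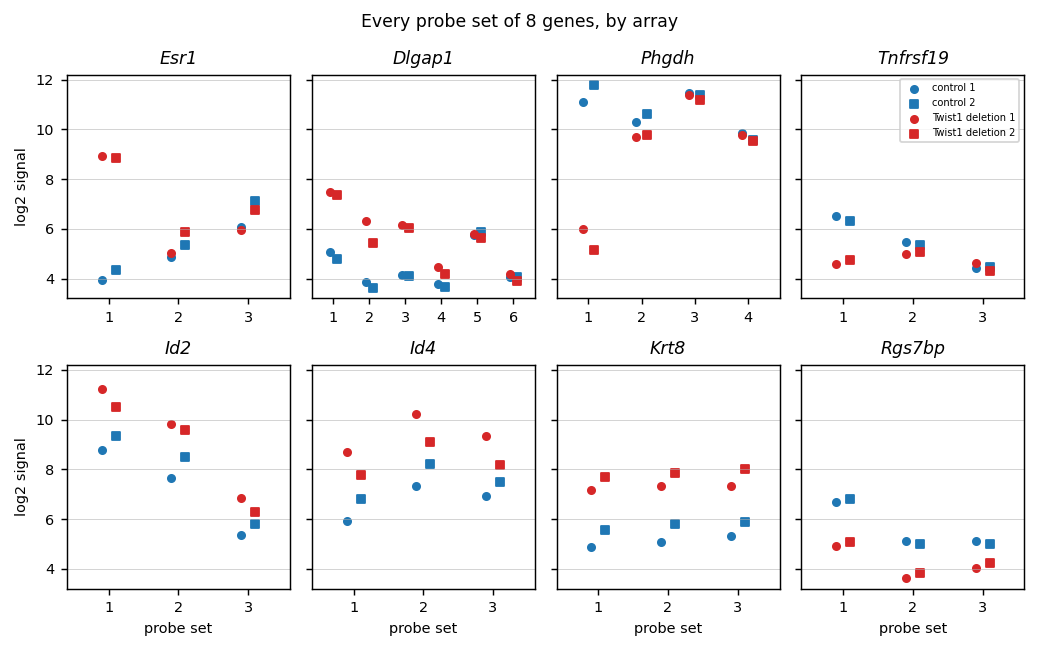
Log2 signal (y axis) of every probe set (x axis, ordered by the size of its difference) of 8 genes on each array, blue for controls and red for Twist1 deletion. All probe sets of Id2, Id4, Krt8 and Rgs7bp separate the groups in the same direction, whereas 1 of 3 does so by a wide gap in Esr1 and Tnfrsf19 and 1 of 4 in Phgdh.

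Gene lists are described by how many members had higher or lower means, by how many had groups that do not overlap, and by the list median. Over all 15273 genes the groups did not overlap for 2741 with deletion higher (17.9%) and for 3673 with deletion lower (24.0%), 46.5% of genes had a higher mean, and the median difference was -0.02. No member of any list outside the sex-linked genes passed over all genes except Esr1, so the lists are counts of levels and not of rises or falls.

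**Figure D4:**
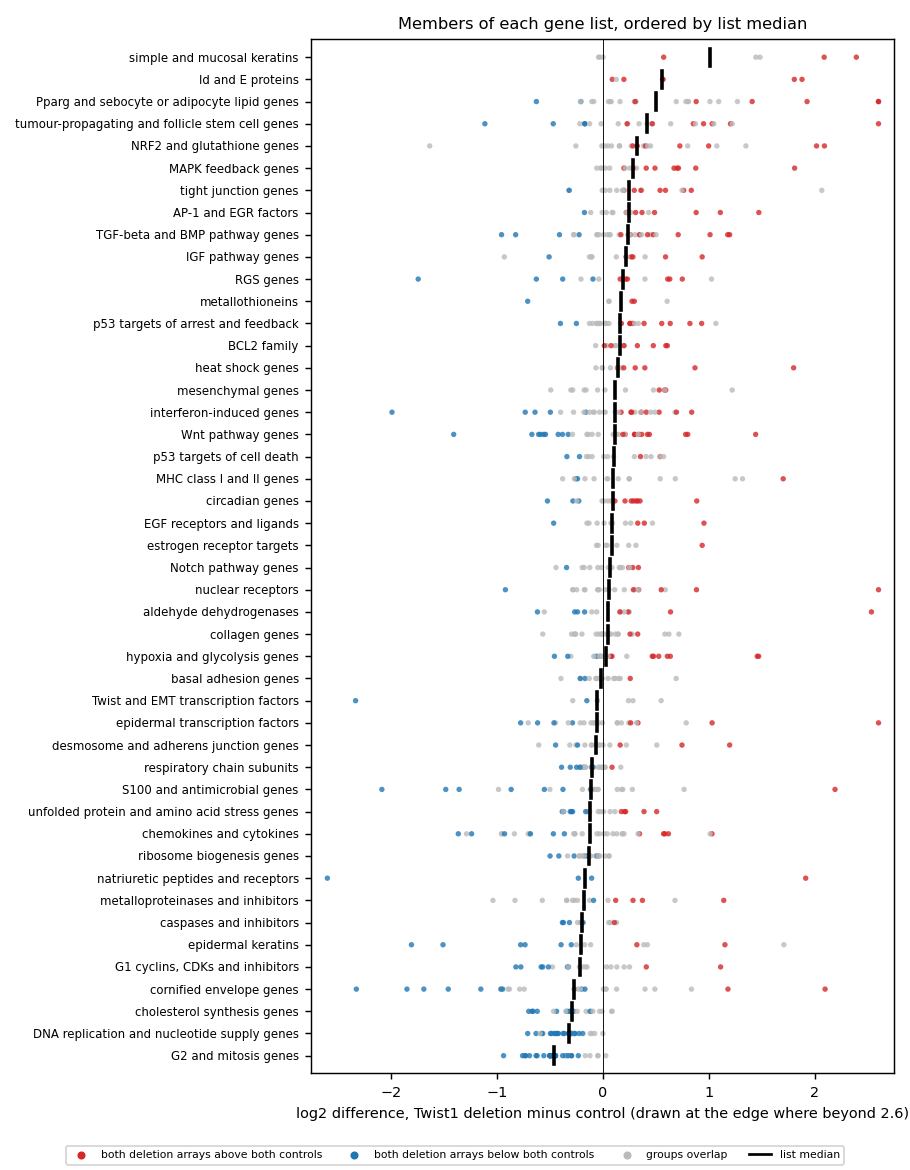
Log2 difference, Twist1 deletion minus control (x axis), of every tested member of 46 gene lists (rows, ordered by median), with the list median as a black bar. Red and blue points are members whose groups do not overlap, grey points are members whose groups do, and 6 points beyond 2.6 are drawn at the edge.

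Genes of the dimer partners of Twist1 and of the proteins that take up those partners had higher means after deletion. All 4 Id genes had higher means with no overlap, with a median difference of 1.19, and the 3 E protein genes had a median of 0.13. Id2 was at 8.77 and 9.33 on the controls and at 11.22 and 10.50 on the deletion arrays, and Id4 at 7.33 and 8.22 against 10.22 and 9.08. Both Id2 and Id4 separated the groups on all 3 of their probe sets. Id3, which differed by 0.57, was at 10.07 and 10.16 against 10.55 and 10.82, and Id1 was higher by 0.20. Of the E protein genes Tcf4 was at 8.14 and 8.17 against 8.90 and 8.54, and Tcf3 and Tcf12 differed by 0.09 and 0.13, with Tcf12 at -0.11 without deletion 2. The list of 7 had a median of 0.56, and between 0.38 and 0.57 with any 1 array left out.

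The transcription factors that share the mesenchymal programme with Twist1 did not show a common direction. Of 8 tested members 3 had a higher mean and 5 a lower, and apart from Twist1 only Zeb1 had groups that did not overlap, at 4.95 and 5.11 on the controls and 4.92 and 4.83 on the deletion arrays. Snai2, which encodes the repressor Slug, differed by -0.05 with overlapping groups, and by 0.06 without control 2 and 0.15 without deletion 1. Of 14 mesenchymal genes 8 had higher means, with a median of 0.12 that was 0.43 without deletion 1, 0.38 without control 1 and 0.07 without control 2, and the 3 whose groups did not overlap are parts of the contractile cytoskeleton. These were Acta2 (0.53), Tagln (0.58) and Myl9 (0.59). Of the 6 cytoskeleton genes of the list 2, Cnn1 (-0.30) and S100a4 (-0.49), had lower means with overlap. Collagen genes, with 13 of 23 higher and a median of 0.04 that was -0.17 without control 2, 0.18 without control 1 and 0.24 without deletion 1, were split, and the E-cadherin gene Cdh1 was at 11.37 and 10.69 against 11.75 and 11.33.

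Genes of G2, mitosis and DNA replication had lower means on the deletion arrays almost throughout. Of 33 genes of G2 and mitosis 32 had lower means and 27 did not overlap between the groups, with a median of -0.46. Racgap1, a regulator of cytokinesis, was at 9.28 on both controls and at 8.44 and 8.65 on the deletion arrays, a difference of -0.74 (SE 0.15). The kinetochore gene Nuf2 (-0.73), Cenpf (-0.62) and the cytokinesis gene Anln (-0.45) also had both deletion arrays below both controls. The members that overlapped were Kif2c (-0.33), Plk1 (-0.17), Mki67 (-0.12), Foxm1 (-0.05), Mad2l1 (-0.05) and Ckap2 (0.03). All 30 DNA replication genes had lower means, 22 without overlap, with a median of -0.32. Pcna (-0.10) and Orc6 (-0.0011) were among those that overlapped. Orc1, a subunit of the origin recognition complex, was at 7.90 and 7.50 against 7.14 and 6.84, and Prim1, a primase subunit, at 9.98 and 9.82 against 9.39 and 9.49.

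With any 1 array left out, the median lay between -0.55 and -0.36 for the G2 and mitosis list and between -0.41 and -0.27 for the replication list. Members of both lists differed by less than 1 log2 unit each, and the poly-A spike-in level and the 3′ excess of Gapdh moved with the same split of the arrays, as the plot by array shows. Their part in the cell cycle difference was not tested.

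**Figure D5:**
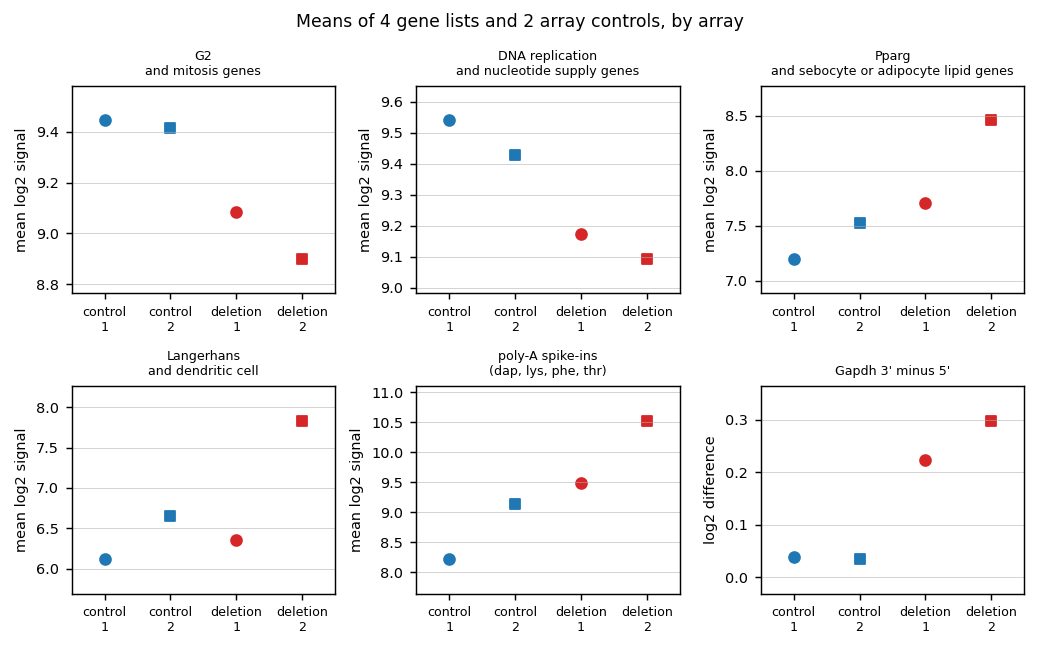
Mean log2 signal of 4 gene lists and of the poly-A spike-ins, and the 3′ minus 5′ difference of Gapdh (y axes, each with its own range), on each of the 4 arrays (x axis). The G2 and mitosis list and the replication list are lower on both deletion arrays, where the spike-ins and the Gapdh difference are higher, and the antigen-presenting cell list stands out on deletion 2.

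Genes that act in the G1 phase went both ways. The CDK4/6 inhibitor genes Cdkn2d, at 8.82 and 8.87 on the controls and 7.83 and 8.21 on the deletion arrays, and Cdkn2c, with a difference of -0.77, had groups that did not overlap. Cdk6 itself was at 10.84 and 10.59 against 10.16 and 10.10. Ccnd2, which encodes cyclin D2, went the other way, at 9.06 and 10.06 against 10.79 and 10.55, as did Myc at 9.65 and 9.86 against 10.01 and 10.32. Of 21 genes 14 had lower means, with a median of -0.22 that was 0.03 without deletion 2 and -0.46 without deletion 1. Ribosome biogenesis genes (17 of 20 lower, median -0.14) and respiratory chain subunits (20 of 24 lower, median -0.10) had small differences. With any 1 array left out these medians ran from -0.28 to -0.03 and from -0.18 to -0.04.

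Whether p53 targets differ is a question the study design raises, since the series includes a joint deletion. Of 25 p53 targets of arrest and feedback 17 had higher means, 9 without overlap, against 2 lower without overlap, and the median was 0.16. Plk3, a stress-activated kinase, was at 8.92 and 8.81 on the controls and at 9.88 and 9.50 on the deletion arrays. Btg2, an antiproliferative gene, was at 10.80 and 11.39 against 11.55 and 11.92, and Trp53inp1 at 8.70 and 9.77 against 10.32 and 10.01. Cdkn1a, the cell cycle inhibitor p21, was at 11.30 and 11.33 against 11.79 and 11.41, so that deletion 2 was barely above the controls. The 2 genes lower without overlap were Sfn (-0.40) and Cop1 (-0.25). Without deletion 1 the list median was 0.05, and without control 1 it was 0.08.

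The p53 targets of cell death were more mixed, with 10 of 15 higher, 2 without overlap in each direction and a median of 0.10, which was 0.26 without control 2 and 0.13 to 0.16 without any other array. The BH3-only gene Pmaip1 was at 9.86 and 9.64 against 10.03 and 10.55, and the death receptor gene Tnfrsf10b at 5.88 and 5.91 against 6.26 and 6.23. Lower without overlap were Phlda3 (-0.34) and Trp53i11 (-0.22). In the BCL2 family, which sets the threshold for cell death at mitochondria, 11 of 12 genes had higher means and 7 did not overlap. The median was 0.16, and between 0.11 and 0.22 with any 1 array left out. The 7 include small differences in Bad (0.01), Bik (0.08) and Hrk (0.20). Bnip3, which is also counted in the hypoxia list further on, was at 10.23 and 10.35 on the controls and 10.93 and 10.86 on the deletion arrays. Bcl2l11, which encodes the killer protein Bim, was at 7.80 and 8.12 against 8.53 and 8.58, and Bmf, a killer activated on loss of attachment, differed by 0.48. The guardian Bcl2 itself was higher too, by 0.32. Among 14 caspases and their regulators 10 had lower means, with Casp8 at 9.18 on both controls and at 8.75 and 8.85 on the deletion arrays, and Birc5, which also acts in mitosis, differing by -0.37.

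The list of MAPK feedback genes, most of them induced by the signal that they restrain, had higher means for 14 of 17 members. Of these, 9 did not overlap, and none of the list was lower without overlap. The list also holds Etv4 (0.25), Etv5 (-0.02) and Rasa1 (-0.06), which overlapped. Dusp4, a phosphatase of ERK kinases, was at 6.05 and 6.58 on the controls and at 7.89 and 8.36 on the deletion arrays, a difference of 1.81 (SE 0.27, limma adjusted p = 0.34). Spry1, which restrains signalling by receptor tyrosine kinases, was at 7.68 and 7.85 against 8.59 and 8.69. Dusp6 (0.70), Spry2 (0.67) and Dusp5 (0.49) were arranged alike. The list median of 0.28 lay between 0.22 and 0.42 with any 1 array left out.

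AP-1 and EGR factors, the immediate targets of the same pathway, had higher means for 13 of 16 members, with 7 higher and 1 lower without overlap and a median of 0.24. Maff was at 8.52 and 8.29 against 9.40 and 9.17, and Fosl2 at 9.75 and 9.57 against 10.04 and 10.25. Egr2 and Egr3 had the largest differences, 1.47 and 1.11, and were brightest on deletion 2. Upstream of them, Egfr, the receptor itself, was at 9.15 and 9.09 on the controls and 8.63 and 8.68 on the deletion arrays, while Lrig3, a membrane regulator of growth factor receptors, was at 7.05 and 6.74 against 7.76 and 7.94. The ligand gene Tgfa differed by 0.33.

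Secreted, membrane and intracellular regulators of TGF-beta and BMP signalling had higher means for all 10 members, 6 without overlap, with a median of 0.38. Fst, which encodes the activin trap follistatin, was at 11.50 and 11.70 on the controls and at 12.33 and 12.28 on the deletion arrays. Smad6, an inhibitory SMAD, was at 6.07 and 5.99 against 6.92 and 7.16. The decoy receptor gene Bambi was at 6.46 and 6.10 against 7.99 and 6.97. Each of these genes had both deletion arrays above both controls, as had Grem1, a BMP antagonist (0.48). Those of the 10 that overlapped were Fstl1 (0.26), Fstl3 (0.07), Ltbp1 (0.06) and Nog (0.0064). Ligands were split, since 6 of 9 had a higher mean while the 3 without overlap on the lower side include Bmp4 and Tgfb2. Bmp4 was at 6.86 and 6.21 against 5.28 and 5.87, and Tgfb2 at 7.11 and 7.26 against 6.02 and 6.71. Over all 31 genes of the pathway the median was 0.23, and it was -0.0045 without deletion 2 and 0.11 without control 2.

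Of 11 Wnt ligand genes 7 had lower means, with 5 lower and 2 higher without overlap, and of 7 secreted inhibitors 5 had higher means, all without overlap. Wnt10b was at 6.07 and 5.82 on the controls and at 5.35 and 5.37 on the deletion arrays, and Wnt4 differed by -0.54. Among the inhibitors Notum differed by 0.78, at 5.77 and 6.40 against 7.29 and 6.45, so that deletion 2 was barely above control 2. Dkk3 was at 7.83 and 7.95 against 8.02 and 8.64. Receptors went both ways, with Fzd7 at 7.58 and 7.72 against 8.30 and 8.61 and Fzd10 at 7.13 and 6.91 against 6.43 and 6.27. The pathway target genes Rnf43 (-0.61) and Axin2 (-0.42) had lower means, but 5 of 8 target genes had higher ones. Over all 33 genes of the pathway the median was 0.11, and between 0.01 and 0.09 with any 1 array left out.

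Of the 4 simple epithelial keratins 3 had a higher mean without overlap, Krt8 among them, while Krt19 differed by 0.0013 with overlap. Krt18 was at 5.80 and 7.42 on the controls and at 8.45 and 9.55 on the deletion arrays, and Krt7 at 4.39 and 4.76 against 5.03 and 5.27. The list that joins them with mucosal keratins had a median of 1.01, which was 0.23 without control 1, 0.26 without deletion 1 and 1.55 without control 2. Keratins of the epidermis itself had lower means for 9 of 14 members, with 6 lower and 2 higher without overlap. The higher ones were Krt77 (1.15) and Krt80 (0.32), and Krt79 (1.71), Krt15 (0.42) and Krt17 (0.39) had higher means with overlap. Krt10, the partner of Krt1, was at 12.48 on both controls and at 11.65 and 10.29 on the deletion arrays, and the basal pair Krt5 and Krt14 differed by -0.39 and -0.30. Among 27 genes of the cornified envelope 18 had lower means, 10 of them without overlap, and 2 were higher without overlap. Lce3f was at 7.58 and 7.66 against 6.10 and 6.23, and the desmosomal cadherin gene Dsg1a at 8.15 and 7.12 against 6.08 and 4.54. The list median of -0.27 was 0.11 without deletion 2 and -0.65 without deletion 1.

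Tight junction genes had higher means for 15 of 18 members, with a median of 0.25 that was 0.14 without deletion 1. Among them were all 9 members of a group made up of claudins and Epcam, 4 of them without overlap. Cldn3 of this group differed by 0.07 with overlap. Epcam, the surface protein used for the sort, was at 10.38 and 10.54 on the controls and 10.82 and 11.62 on the deletion arrays, and Ocln, which encodes occludin, at 7.12 and 6.87 against 8.51 and 7.15. Desmosome and adherens junction genes were split, with 12 of 19 lower. Pkp1 was at 11.99 and 12.07 against 11.67 and 11.50, and its relative Pkp2 was at 5.30 and 4.38 against 6.03 and 6.05.

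Genes of tumour-propagating and hair follicle stem cells had higher means for 17 of 24 members, with 7 higher and 4 lower without overlap and a median of 0.42. Sox9, a follicle stem cell factor, was at 8.90 and 9.03 on the controls and at 9.79 and 10.21 on the deletion arrays. Lhx2 was at 5.08 and 4.73 against 5.76 and 6.46, and Foxc1 at 7.68 and 8.10 against 9.12 and 8.55. Nrp1, a co-receptor for VEGF, was at 7.23 and 7.61 against 6.15 and 6.47, and Gli2, an effector of hedgehog signalling, differed by -0.47. Sox2, a factor of skin tumour stem cells, varied most, at 4.60 and 6.20 on the controls and 10.27 and 7.40 on the deletion arrays, so that its difference of 3.43 had an SE of 1.04. The list median was 0.16 both without control 1 and without deletion 2.

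Lipid genes had the third highest median of the lists drawn, 0.50, with 19 of 24 higher, 6 of them without overlap, and 2 lower without overlap. This median was 0.99 without deletion 1, 0.11 without deletion 2 and 0.31 without control 1. Plin2, which coats lipid droplets, was at 10.39 and 10.68 on the controls and at 10.96 and 11.86 on the deletion arrays, and Angptl4, a lipase inhibitor induced by PPARs, at 7.33 and 8.03 against 8.17 and 10.01. Dgat1, an enzyme of triglyceride synthesis, was at 9.29 and 9.12 against 8.34 and 8.80. Cholesterol synthesis genes had lower means for 18 of 20 members, 10 without overlap and none higher without overlap, with a median of -0.29 that was -0.13 without deletion 2. Fdps, which makes farnesyl diphosphate, was at 10.62 on both controls and at 10.01 and 9.89 on the deletion arrays, and Hsd17b7 differed by -0.62.

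Genes of the NRF2 and glutathione response had higher means for 20 of 23 members, 7 without overlap and none lower without overlap. Gstm5, a glutathione transferase gene, was at 8.30 and 8.83 on the controls and at 9.22 and 9.37 on the deletion arrays, and Cat, which encodes catalase, at 9.94 and 10.06 against 11.53 and 10.47. The list median was 0.32, with 0.05 without deletion 1 and 0.55 without deletion 2. Hypoxia and glycolysis genes were mixed, with 9 higher and 3 lower without overlap among 22 and a median of 0.03, up to 0.09 without deletion 1. Car9, a carbonic anhydrase of hypoxic tumours, was at 7.57 and 7.14 against 8.87 and 8.78. Adm, which encodes adrenomedullin, was at 8.69 and 8.55 against 10.44 and 9.71. In both the deletion arrays lay above the controls by more than the spread within a group, as they did in Ndrg1 (0.64).

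Of 32 chemokine and cytokine genes 14 had higher and 18 lower means, 5 and 6 of them without overlap, and the median of -0.13 was 0.22 without deletion 1, 0.21 without control 1, -0.30 without control 2 and -0.49 without deletion 2. Of 17 interleukin and related cytokine genes 13 had lower means and 5 did not overlap, all lower, with a median of -0.36, against 24.0% of all genes lower without overlap. The alarmin gene Il33 was at 10.35 and 9.62 on the controls and at 8.96 and 8.53 on the deletion arrays, and Il1f9, an IL-36 cytokine, at 10.76 and 10.26 against 9.86 and 9.31. The chemokine gene Ccl20 was at 8.94 and 9.14 against 7.02 and 8.33, while 10 of 15 chemokine genes had a higher mean. All 9 S100 genes had lower means but only 2 did so without overlap. S100a16 was at 12.45 and 12.57 against 12.20 and 12.06. Of 29 interferon-induced genes 17 had higher means, 8 higher and 5 lower without overlap, with a median of 0.11 that was -0.21 without deletion 2, 0.04 without control 1 and 0.0029 without control 2. Ifit1 was at 4.52 and 4.19 against 5.19 and 5.20, the opposite of Ifi204.

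Smaller lists held single large differences. Timp2, an inhibitor of matrix metalloproteinases, was at 6.89 and 6.81 on the controls and at 7.97 and 8.01 on the deletion arrays, while 9 of 13 protease genes of that list had lower means. The median of the list, -0.18, was 0.42 without deletion 1, -0.83 without deletion 2, -0.01 without control 1 and -0.04 without control 2. Among the regulators of G-protein signalling Rgs10 differed by 0.75 and Rgs17 by 0.63, against -1.74 for Rgs7bp. Per2, a gene of the circadian clock, was at 5.66 and 5.76 against 6.29 and 6.90, and Per3 at 6.27 and 6.59 against 5.87 and 5.93. The chaperone gene Hspb8 was at 8.79 and 8.40 against 9.43 and 9.49, and Irs2, an adaptor of insulin and IGF receptors, at 9.02 and 9.33 against 9.73 and 9.81.

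The 2 deletion arrays were not alike in many genes. On deletion 1, 37 genes lay at least 1.5 log2 units above every other array and 14 at least that far below. On deletion 2 the counts were 55 and 29, against 8 and 15 on control 1 and 7 and 3 on control 2. Genes high on deletion 1 alone included Lor, which encodes the envelope protein loricrin, at 9.11 against 5.41 to 6.13 elsewhere, and Spink5, a protease inhibitor of the upper epidermis, at 11.25 against 7.43 to 8.84. The cystine transporter gene Slc7a11 and the glutathione transferase gene Gstm1 were at 8.77 and 10.98 there, against at most 6.57 and 8.81 on the other arrays. Ostf1 was low on deletion 1 alone, at 4.48 against 8.58 to 9.65.

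On deletion 2 alone, sebaceous lipid genes were high. The fatty acid elongase gene Elovl3 was at 8.68 against 4.53 to 5.77 elsewhere, and the fatty acyl-CoA reductase gene Far2 at 8.10 against 4.03 to 4.95. Cd36, a fatty acid receptor, was at 6.78 against 3.65 to 4.16. These genes were near the filter level on the other 3 arrays. The sebaceous duct keratin Krt79 was at 10.31 against 6.76 to 7.79, and the MHC class II gene H2-Aa at 9.61 against 5.66 to 7.23. Genes of late differentiation were low on the same array, with the transglutaminase gene Tgm3 at 7.18 against 9.95 to 11.23 and the desmocollin gene Dsc1 at 5.41 against 7.83 to 8.99. The sample descriptions give deletion 1 a different first number from the other 3 arrays and do not say what it stands for.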

How the data were processed

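The values are log2 signals of 1 Affymetrix mouse array type, deposited by the authors as 1 table of 4 arrays. The log2 scale was read from the values, which run from 2.81 to 14.45 with array medians of 5.42 to 5.44. How the arrays were summarised and normalized is not stated in any label or header, and without scanner files background could not be examined. The number of arrays limits the precision. Of the remaining probe sets 932 had several symbols, 9160 had none and 64 were controls. Of the named ones 34741 matched the RefSeq gene table (GRCm38.p6), which gave current symbols. Probe sets are not located by coordinates.

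Groups were compared with limma 3.58.1 in R 4.3.3 (lmFit and eBayes with an intensity trend, Benjamini-Hochberg adjustment over all 15273 genes or 34945 probe sets), with a threshold of 0.05. Differences are deletion minus control on the log2 scale, with moderated standard errors. The gene fit was tested on simulated data with 200 changed genes among 15273. It called 0% of changes of 1 log2 unit, 83% of changes of 2 units and 99.5% of changes of 4 units. Unchanged genes called numbered 0, 9 and 11 in these runs. The simulation gave both groups the same spread for a gene. The real deletion arrays differed more from each other than the controls did (SD 0.51 against 0.33), so these shares may not hold for the real arrays. Alternatives were 2 other normalizations, other filters, the mean over probe sets, no trend, a robust fit, a threshold of 0.10, the replicate number as a block and each array left out. A fit that leaves out X- and Y-linked genes was chosen after seeing the data. Same-numbered arrays did not deviate together (correlation 0.03), so the numbers were not taken to pair them.

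The genes named are Twist1, the sex-linked list, every called gene, the 15 largest differences each way among genes whose groups do not overlap and whose unadjusted p is under 0.01 (leaving out unnamed transcripts and the X and Y chromosomes), and the members with the largest moderated t of each list, not all of them printed. Genes of 1 array, probe set disagreements and some further list members were chosen after their values were seen. The members and the lists were chosen with earlier results of these data known. The level of the p53 gene is not reported here.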

Additional observations from a re-analysis of the deposited data

Results flagged for a closer look

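Spike-in probe sets, which are outside the gene comparison, differed between the groups: the poly-A RNAs averaged 1.33 higher on the deletion arrays on the log2 scale. The hybridisation controls bioB, bioC and bioD, added after labelling, differed by 0.27, and the 18S RNA probe sets by -0.51.

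Among the 10092 probe sets with no gene symbol or several, 12 passed limma's test at an adjusted p under 0.05, 9 higher and 3 lower after deletion, with differences of up to 5.92 and down to -4.06. They name no single gene in the annotation used and were left out of every gene count. The probe set with the largest rise was at 3.16 and 3.54 on the controls and at 9.16 and 9.39 on the deletion arrays. Whether it or the others read sex-linked genes was not tested.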

How the results depend on the processing

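The count of genes that passed was 5 with quantile normalization, median centring, a robust fit and no filter, and 4 with no intensity trend or a filter at the 50th percentile. It was 3 when a gene's probe sets were averaged, 2 when X- and Y-linked genes were left out (for probe sets 3), and 8 at an adjusted p under 0.10. With each array left out in turn it ran from 0 to 40, and the number of probe sets called from 0 to 280. With the replicate number as a block it was 0 in limma, where 1261 genes had an unadjusted p under 0.05, and 9 probe sets passed. With 1 array left out, the lone array of a group is assumed to vary like the other group. In the same fits the difference ranged from -0.63 to 4.92 for Esr1, from -0.14 to 2.61 for Dlgap1, from -0.25 to 0.15 for Snai2 and from -0.11 to 0.36 for Tcf12, which was at -0.050 when its probe sets were averaged. Of the genes with an unadjusted p under 0.05, 36.9% were higher as deposited, 47.7% with quantile normalization and 51.1% without control 2, while the median of all genes stayed between -0.07 and 0.0040. Signal near the filter level limits what can be read of Twist1, Esr1, Gypc and Pparg in the group where they are dim.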

Other observations

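Some genes with large differences follow each other when the tested genes are ordered along the genome, which was noticed after their values were seen. Genes that were not tested were left out of this order and may lie between them. Among the 314 genes whose groups do not overlap and whose unadjusted p in limma is under 0.01, there were 11 adjacent pairs. In 9 of them both genes differed in the same direction, and these include the Y-linked pair Kdm5d (3.54) and Eif2s3y (5.81). Pde3b (3.76) and the peptide gene Calcb (2.50) are neighbours of this kind on chromosome 7. The nearest tested genes on either side of the pair were close to 0. They were Psma1, which encodes a proteasome subunit (-0.0051), and Insc (-0.09). The homeobox genes Irx1 (1.80) and Irx2 (1.20) on chromosome 13 and the hydrolase genes Abhd14a (1.00) and Abhd14b (1.92) on chromosome 9 were further pairs with higher means. The protease inhibitor genes Csta1 (-1.27) and Stfa2l1 (-2.09) on chromosome 16 were a pair with lower means. The nearest tested genes around Gypc differed by 0.69 (Bin1) and -0.26 (Tslp), and those around Esr1 by -0.62 (Armt1) and -0.04 (Syne1). Whether adjacency is more frequent than among other genes was not tested.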
